A study of Homo sapiens with 12 samples.

Results

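Cytosolic ribosomal protein genes encode the proteins of the ribosome that translates mRNA in the cytoplasm. They were chosen by name: every gene of the table whose current symbol is RPL or RPS followed by the number of a ribosomal protein, or is RPSA, RPLP0, RPLP1 or RPLP2, with the RPS6K kinases and the Y-linked copies left out. The search found 83 such genes among the 14029 genes tested, of which 46 encode proteins of the large subunit, 31 encode proteins of the small subunit and 6 are paralogs of one of these (RPL3L, RPL7L1, RPL22L1, RPL26L1, RPL39L and RPS27L). The 77 genes that are not paralogs are called the core genes below. RPL10L, which matches the same rule, had no row in the table used here. The rule uses symbols and no measured value, but it was set with earlier results of these data known.

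The cells were ES-2, a line from a human ovarian cancer. Per the labels, the cells carried either a control vector (PLKO, genotype given as WT) or a short hairpin RNA against SRMS, a non-receptor tyrosine kinase (genotype given as SRMS knockdown), and received 15 µM cisplatin, a drug that crosslinks DNA, for 8 hours, or phosphate-buffered saline. The groups used here are the 3 vector libraries and the 3 libraries labelled SRMS shRNA, all with cisplatin, so that cisplatin is shared by both groups and its own effect was not measured. The 6 samples in saline are not analysed here. The labels name 1 cell line and no clone or second hairpin. They do not say that the replicates were separate cultures, and p-values therefore reflect the spread of these libraries only, which may be technical.

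The cytosolic ribosome has a small subunit, which reads the mRNA, and a large subunit, which joins the amino acids. Its proteins are needed in matched amounts, and those made in excess are known to be degraded. Most ribosomal protein mRNAs begin with a C and a run of pyrimidines, the 5′ terminal oligopyrimidine (TOP) motif, through which mTOR and the RNA-binding protein LARP1 control their translation and stability. Several free ribosomal proteins, RPL5 and RPL11 above all, bind MDM2 when ribosome assembly is disturbed and so stabilise p53.

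The start sites are shown because the run of pyrimidines is the sequence that most core genes share beyond their names and that separates them from several of their paralogs. Each line gives 15 bases before and 15 bases from a start site listed by RefSeq (GRCh38.p14, strand of the gene), with the C and T run that begins at the start in capitals.
RPLP1 (chr15:69452803-69452832, plus strand): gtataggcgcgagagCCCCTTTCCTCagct
RPS12 (chr6:132814554-132814583, plus strand): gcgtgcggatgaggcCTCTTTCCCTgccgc
RPS19 (chr19:41860240-41860269, plus strand): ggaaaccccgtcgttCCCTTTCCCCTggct
RPL22 (chr1:6199581-6199610, minus strand): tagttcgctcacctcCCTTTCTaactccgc
RPL22L1 (chr3:170870181-170870210, minus strand): cgcggccgtagcttcCTCTCTgctctcgcg
RPS27 (chr1:153990747-153990776, plus strand): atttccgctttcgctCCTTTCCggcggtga
RPS27L (chr15:63157463-63157492, minus strand): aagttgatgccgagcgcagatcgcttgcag
RPL7L1 (chr6:42879601-42879630, plus strand): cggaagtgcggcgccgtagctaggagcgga
RPS7 (chr2:3575245-3575274, plus strand): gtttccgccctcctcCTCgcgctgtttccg

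At the starts shown, RPLP1, RPS12, RPS19, RPL22 and RPS27 begin with a C inside a pyrimidine run, and so does the paralog RPL22L1. RPS19 has 2 listed starts, and the one not shown begins on an A with no run. RPS28, also not shown, begins on an A. RPS27L and RPL7L1 start on a G with no run, and the run of RPS7 is only 3 bases long. The promoter table held 66 of the 83 genes, and a gene was counted if any of its listed starts had the feature. A C followed by at least 4 pyrimidines stood at the start of 46 of 62 core genes (74.2%) and 1 of 4 paralogs. The same was true of 818 of the 11313 tested genes with a listed promoter (7.23%) and of 5.14% of all 27305 genes in the promoter table. Allowing the run to begin within 10 bases of the start raised the core share to 57 of 62 (91.9%), against 42.2% of the tested genes.

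Values are given as deposited, on a linear scale: whole reads over each library's effective size, on the scale of CPM. Before any result, 3 properties of the libraries matter. The recovered reads ran from 28009232 to 56855428 per library. Replicate 1 stood apart from replicates 2 and 3 in both groups: the chi-square per gene between replicates was 1.79 and 1.65 for replicates 2 and 3 and between 3.55 and 5.07 for pairs with replicate 1. Of the 77 core genes, 54 had their lowest vector value in replicate 1 and 64 their lowest SRMS shRNA value in replicate 1, and 54 did so in both groups. The hairpin's target SRMS showed no fall. Its values were 0.0669, 0.306 and 0.819 with the vector and 0.328, 1.07 and 0.863 in the libraries labelled SRMS shRNA, from 2 to 47 reads per library. The difference of 0.52 on the log2 scale did not pass the limma test (adjusted p = 0.168), so the groups are named by their labels only. Blocking on the replicate number gave it an adjusted p of 0.00782, toward more SRMS, and it also passed the threshold without vector replicate 3 (0.84, adjusted p = 0.0281), without SRMS shRNA replicate 1 (0.79, adjusted p = 0.0245) and without replicate 1 of both groups (0.51, adjusted p = 0.0331). Of the ovarian and epithelial markers, KRT8, KRT18 and VIM were well expressed, PAX8 and WT1 had group means of 2.84 or less, and MUC16, EPCAM and CDH1 had no row in the table used here. The 5 with a row summed to 5984 to 6552 with the vector and 7146 to 7993 in the libraries labelled SRMS shRNA, with 3 higher and 1 lower. Among markers of other cells, PTPRC, CD3E, ITGAM, VWF, DCN, LUM and the globins had no row. The 3 of 6 leukocyte markers with a row summed to 49.3 to 52.1 with the vector and 60.2 to 64.6 in the libraries labelled SRMS shRNA. The 3 of 4 endothelial markers summed to 14.8 to 16.8 and 5.88 to 8.36, and the 4 of 6 fibroblast markers to 1246 to 1251 and 822 to 828. In each of these 3 lists nearly all came from 1 gene (CD68, CDH5 and COL1A1), and the part of these differences in the results below was not tested.

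Ribosomal protein mRNAs took a larger share of the RNA in every library labelled SRMS shRNA than in any vector library. The 83 genes together held 6.95%, 7.23% and 7.27% of the deposited signal in vector replicates 1, 2 and 3 and 8.00%, 8.66% and 8.46% with SRMS shRNA. The groups did not overlap, and within each group replicate 1 was lowest. Genes of the mitochondrial genome moved the same way, from 4.15 to 4.83% with the vector to 5.40 to 6.12%. A scaling on totals without these genes and the ribosomal protein genes is given below with the other scalings. The deposited values of a library summed to 972634 to 990804 with the vector and to 1021956 to 1046747 in the libraries labelled SRMS shRNA. The fold changes below include that difference, and the shares above do not. Since shares and deposited values are both relative to a library's size, more ribosomal protein mRNA and less of other RNA cannot be told apart. Nor can more RNA per cell and more cells of a kind.

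Gene by gene, 74 of the 83 genes were higher in the libraries labelled SRMS shRNA, 1 was lower and 8 did not pass the test (limma on log2 of the value plus 0.5, adjusted p below 0.05 over all genes). Of all 14029 genes tested, 26.6% were called higher and 30.2% lower in the same fit. The median log2 fold change was 0.29 over the 83 genes and 0.0031 over all genes. In 67 of the 83 genes the lowest library labelled SRMS shRNA exceeded the highest vector library, against 29.7% of all genes. The differences were small and alike in size: the 77 core genes had a median ratio of 1.23 and a range of 0.948 to 1.44, and 67 of them lay between 0.15 and 0.45 on the log2 scale. Blocked on replicate number, 76 were higher and 1 lower (31.0% and 34.3% of all genes), with RPS2 and RPS7 joining the genes called higher.

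**Figure D1:**
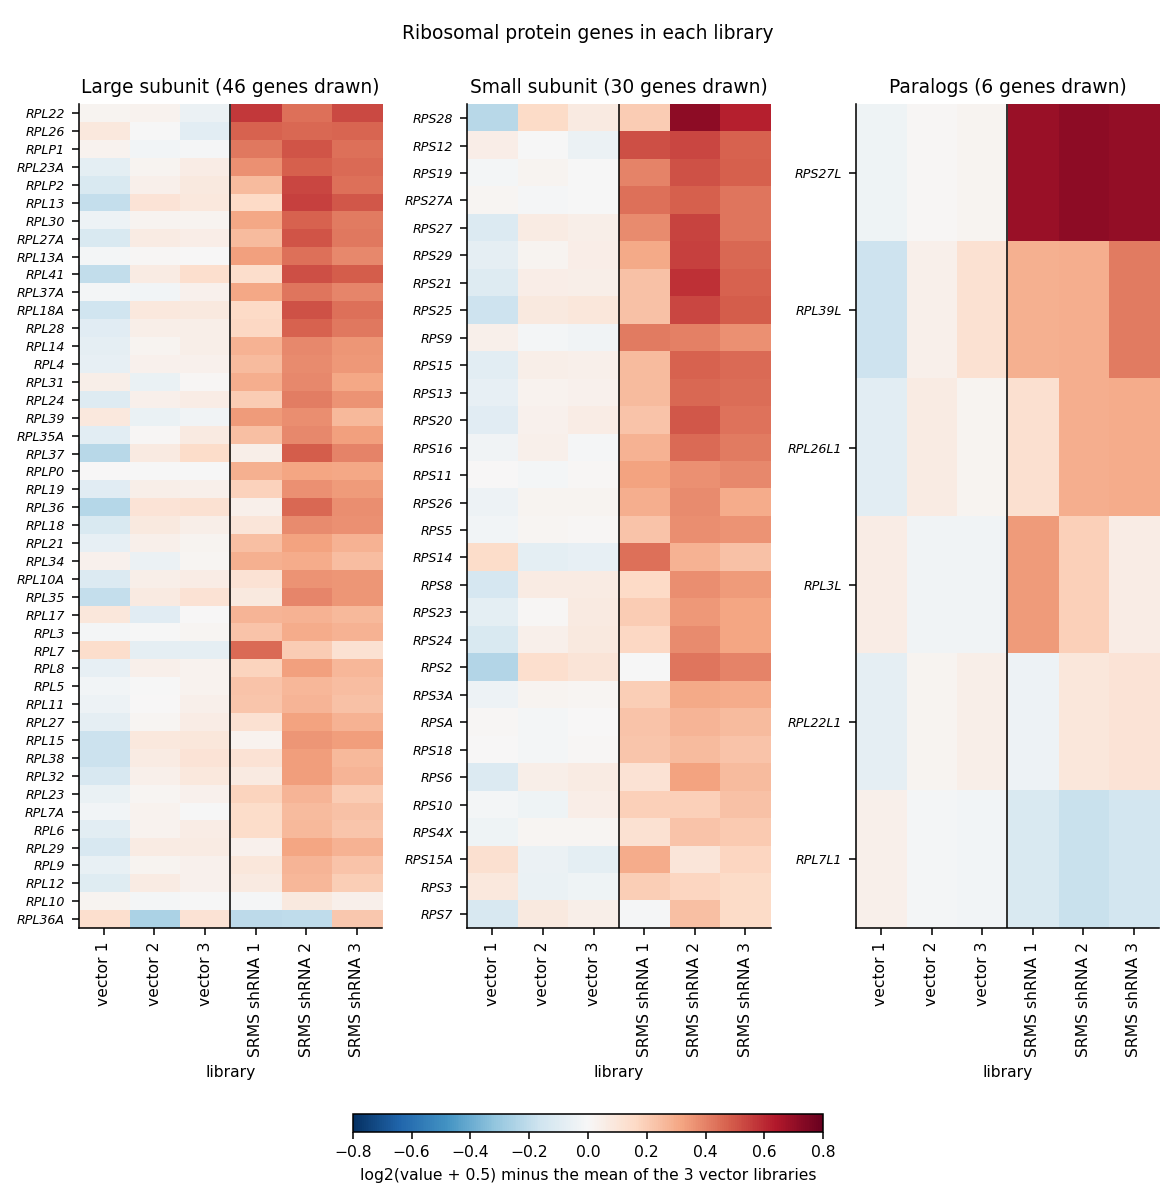
Log2(value + 0.5) of the ribosomal protein genes drawn in each of the 6 libraries, minus the gene's mean over the 3 vector libraries, with genes in rows sorted by fold change within the large subunit, the small subunit and the paralogs. The 3 columns labelled SRMS shRNA are red for nearly all core genes and for most of them paler in replicate 1, while RPL10 and RPL22L1 stay near white, RPL36A is mixed and RPL7L1 is blue.

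The genes of both subunits were higher. For the large subunit 44 of 46 genes were higher, none was lower, and the median log2 fold change was 0.29. For the small subunit 27 of 31 genes were higher, none was lower, and the median was 0.32. Large subunit genes held 4.15 to 4.36% of the signal with the vector and 4.79 to 5.19% in the libraries labelled SRMS shRNA, and small subunit genes 2.75 to 2.85% and 3.15 to 3.41%. The ratio of large to small subunit signal was 1.51, 1.52 and 1.53 with the vector and 1.52, 1.52 and 1.52 in the libraries labelled SRMS shRNA. These ratios overlapped, so no shift between the subunits was seen beyond the spread of the libraries.

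**Figure D2:**
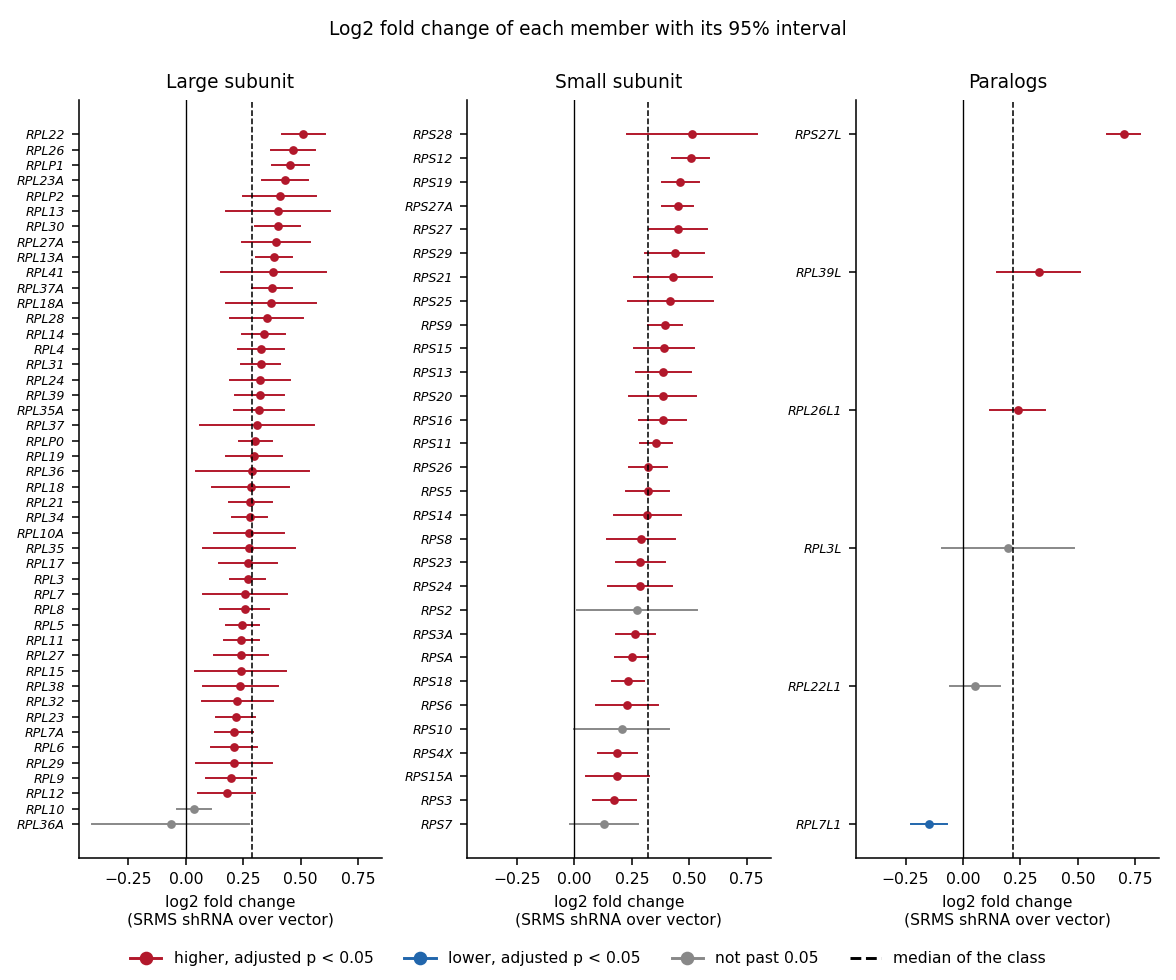
Log2 fold change (SRMS shRNA over vector, x axis) of each gene drawn, with its 95% interval, in panels for the large subunit, the small subunit and the paralogs, coloured by the call, with the median of all genes of the class as a dashed line. The large and small subunit medians are 0.29 and 0.32, and the paralogs spread from -0.15 to 0.70.

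The stalk of the large subunit, which recruits elongation factors, is built on RPLP0 and carries copies of RPLP1 and RPLP2. RPLP0, the scaffold, had 2430, 2427 and 2426 with the vector and 2956, 3020 and 3003 in the libraries labelled SRMS shRNA. The 3 vector values lay within 5 units of each other, and the groups were well apart (log2 fold change 0.30, SE 0.033, limma adjusted p = 3.14e-05). RPLP1 had 2188, 2116 and 2132 against 2872, 3044 and 2908, a log2 fold change of 0.45 (SE 0.037, adjusted p = 4.69e-06). RPLP2 had 821, 920 and 943 against 1062, 1292 and 1214, a log2 fold change of 0.41 (SE 0.071, adjusted p = 0.00071). In none of the 3 did the groups overlap, and RPLP2 was lowest in replicate 1 of both groups. RPL12, which binds at the base of the stalk, was higher by less: 776, 868 and 850 against 872, 999 and 953, a log2 fold change of 0.18 (SE 0.056, adjusted p = 0.0193). Its call was lost without vector replicate 1 (0.13, adjusted p = 0.0683), without SRMS shRNA replicate 2 (0.13, adjusted p = 0.0866) and without SRMS shRNA replicate 3 (0.17, adjusted p = 0.0664).

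RPL5 and RPL11 bind 5S rRNA and, as a free complex, the p53 regulator MDM2. RPL5 had 1636, 1656 and 1690 with the vector and 1941, 1995 and 1970 in the libraries labelled SRMS shRNA. RPL11 had 1310, 1352 and 1384 against 1572, 1626 and 1586. The groups overlapped for neither gene, and the log2 fold changes were close to each other, at 0.25 (SE 0.033, adjusted p = 0.000122) and 0.24 (SE 0.035, adjusted p = 0.000198). Both lay a little below the core median of 0.30, and neither departed from it by the test given below.

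RPL3, which helps to form the peptidyl transferase centre, had 1573, 1588 and 1606 with the vector and 1865, 1952 and 1926 in the libraries labelled SRMS shRNA (log2 fold change 0.27, adjusted p = 7.95e-05). RPL8 lies beside the same centre and, counted per kilobase of transcript, had the highest level of the core genes with the vector (2880 per kilobase). It had 2793, 3003 and 2974 against 3300, 3674 and 3506 (log2 fold change 0.26, adjusted p = 0.00107). RPL22, a protein of the outer surface that is also known to bind RNA outside the ribosome, had 110.1, 110.4 and 105.1 against 161, 147 and 157. The log2 fold change of RPL22, at 0.51 (SE 0.042, adjusted p = 5.28e-06), was the highest of the large subunit. RPL26 sits near the exit of the peptide tunnel and had 162, 152 and 144 against 212, 210.3 and 211 (log2 fold change 0.47, adjusted p = 1.17e-05). RPL7, an rRNA-binding protein, had 1612, 1387 and 1391 against 1995, 1677 and 1591. Replicate 1 was the highest library of both groups for RPL7, opposite to most core genes. The groups of RPL7 overlapped, its log2 fold change was 0.26 (adjusted p = 0.0205), and the call was lost without vector replicate 2 (0.22, adjusted p = 0.0781) or vector replicate 3 (0.22, adjusted p = 0.0762).

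In the small subunit, the gene with the highest log2 fold change was RPS28, which lies near the mRNA exit. It had 42.2, 54.8 and 51.9 with the vector and 56.8, 81.2 and 76.2 in the libraries labelled SRMS shRNA (log2 fold change 0.51, SE 0.127, adjusted p = 0.00589). The groups did not overlap, but the lowest SRMS shRNA library was near the highest vector library. RPS12, a protein of the head of the subunit, had tighter replicates, with 735, 707 and 686 against 1012, 1025 and 985 (log2 fold change 0.51, SE 0.036, adjusted p = 2.18e-06). RPS19, whose gene is the one most often mutated in Diamond-Blackfan anaemia, had 662, 678 and 665 against 880, 950 and 933 (log2 fold change 0.46, adjusted p = 4.13e-06). RPS27A is made as a fusion with ubiquitin and had 512, 501 and 504 against 688, 704 and 681 (log2 fold change 0.45, adjusted p = 1.86e-06).

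RPS6, the ribosomal protein phosphorylated by S6 kinases, had 2205, 2456 and 2487 with the vector and 2580, 2970 and 2835 in the libraries labelled SRMS shRNA, a log2 fold change of 0.23 (adjusted p = 0.00786). RPSA, also known as the laminin receptor precursor, had 1561, 1529 and 1553 against 1809, 1869 and 1841, a log2 fold change of 0.25 (adjusted p = 0.000102). RPS3 lines the mRNA entry and had 1848, 1679 and 1703 against 1996, 1965 and 1934, a log2 fold change of 0.17 (adjusted p = 0.00496). In these 3 genes the groups did not overlap. RPS4X, encoded on the X chromosome, had 1862, 1931 and 1930 against 2075, 2237 and 2209, and its groups did not overlap either (log2 fold change 0.19, adjusted p = 0.00214). RPS20, among the 3 highest core genes per kilobase together with RPL8 and RPS2, had 1327, 1447 and 1472 against 1654, 1992 and 1912 (log2 fold change 0.39, adjusted p = 0.000629).

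The core genes called higher kept that direction when libraries were aligned on the median of all genes, which moved the median of all genes from 0.0031 to 0.16 and that of the 83 genes to 0.45. Under that scaling 80 of the 83 genes were called higher and none lower, beside 44.6% and 17.9% of all genes. With libraries scaled on totals outside ribosomal protein and mitochondrial genes, 70 of the 83 were higher and 1 lower. Over all genes 3336 were then higher and 4644 lower, and the median of the 83 genes was 0.26. Under quantile scaling 46 of the 83 were called higher and 1 lower, beside 3971 higher and 3683 lower of all 14029 genes. Of the genes described with their values in each library, RPS6 (-0.076), RPS3 (-0.016), RPL10 (-0.057), RPS7 (-0.0012) and RPS2 (-0.012) then changed sign.

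Core genes that did not pass the test included RPS2, RPS7, RPS10, RPL10 and RPL36A. RPS2, a protein of the mRNA entry tunnel, had 2125, 2738 and 2680 with the vector and 2496, 3362 and 3283 in the libraries labelled SRMS shRNA. Replicate 1 was low in both groups, the groups overlapped, and the log2 fold change of 0.27 had an adjusted p of 0.0692 without the block and 5.18e-12 with it. RPS7, which also binds MDM2, had 417, 480 and 471 against 452, 538 and 507 (log2 fold change 0.13, adjusted p = 0.125, and 6.5e-06 with the block). Both passed the threshold without SRMS shRNA replicate 1, at 0.41 (adjusted p = 0.00119) for RPS2 and 0.20 (adjusted p = 0.00671) for RPS7. RPL10, one of the last proteins to join the large subunit, had 665, 647 and 652 against 650, 691 and 672, with overlapping groups. Its log2 fold change was 0.035, with a 95% interval from -0.04 to 0.11 that lies below the core median, and an adjusted p of 0.403. Without replicate 1 of both groups RPL10 passed, at 0.069 (adjusted p = 0.00171). With libraries aligned on the median of all genes RPL10 (0.195, adjusted p = 0.000956), RPS2 (0.43, adjusted p = 0.0112) and RPS7 (0.29, adjusted p = 0.00553) were called higher.

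RPS10 and RPL36A were nearly absent from the table, although each encodes a standard protein of the ribosome. RPS10 had values of 2.91, 2.86 and 3.07 with the vector and 3.43, 3.44 and 3.55 in the libraries labelled SRMS shRNA (log2 fold change 0.21, adjusted p = 0.0829). It was called higher with libraries aligned on the median of all genes (0.37, adjusted p = 0.00593). Without a trend of variance with mean level it passed too (adjusted p = 0.01). RPL36A had 2.17, 1.55 and 2.14 against 1.61, 1.62 and 2.33 (-0.065, adjusted p = 0.743). RPL36A was called lower once the length and GC trend was removed (-0.45, adjusted p = 0.0256, and 0.00381 with the block). The groups overlapped for RPL36A and not for RPS10. Per kilobase of transcript both and RPL17 (32.9) were among the 10 lowest of the 77 core genes, at 4.57 with the vector for RPS10 and 4.56 for RPL36A, where the core median was 1001. In the GENCODE release 29 annotation all 3 overlap another coding gene on the same strand, which are the readthrough genes RPS10-NUDT3, RPL17-C18orf32 and RPL36A-HNRNPH2. Of the core genes 9 have such an overlap, and 5 of these 9 are among the 10 lowest per kilobase. The counting may split or drop reads in such places, so the levels and changes of these genes are uncertain, and whether the overlap sets the low values was not tested. The 68 core genes with no such overlap had a median vector value of 857, 65 of them were higher, and their median log2 fold change was 0.31. The 9 with an overlap had a median vector value of 109, 6 were higher and the median was 0.27.

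Most core genes also have processed pseudogenes, which are near-identical copies that can share reads. By name, 76 of the 77 core genes have at least 1 annotated pseudogene, with a median of 10 and a maximum of 91 for RPL23A, and 1133 in all. Among the paralogs 1 of 6 has any. How multiply mapped reads were assigned is not given in the sources used here, so values of single core genes carry that uncertainty.

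A further fit asked which genes changed by more or less than the ribosome as a whole. The median log2 value of the 77 core genes in each library was subtracted from every gene of that library, and limma was run again on all genes. A factor common to all genes of a library then nearly cancels. Quantile scaling does not cancel, and its counts are given at the end. Of the 83 genes, 2 lay above the core median and 7 below it, beside 3.99% and 58.5% of all genes. RPS27L stood 0.37 above on the log2 scale (SE 0.064, adjusted p = 0.000211) and RPS12 0.18 above (SE 0.072, adjusted p = 0.0441). Below were RPL7L1 (-0.48, adjusted p = 0.000139), RPL10 (-0.29, adjusted p = 0.00104), RPL22L1 (-0.28, adjusted p = 0.00145), RPS7 (-0.20, adjusted p = 0.00854), RPL12 (-0.15, adjusted p = 0.0301), RPL9 (-0.13, adjusted p = 0.0469) and RPS4X (-0.14, adjusted p = 0.0487). RPL9, a protein near the base of the stalk, had 605, 641 and 647 with the vector and 671, 761 and 738 in the libraries labelled SRMS shRNA.

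With the replicate block 13 of the 83 genes lay above the core median and 19 below (6.43% and 66.4% of all genes). RPS27L was above in all 23 settings tried, with departures of 0.32 to 1.01. RPS7 was below in 21 of 23 settings, and its call was lost without vector replicate 2 (-0.17, adjusted p = 0.0713). The calls of RPL10, RPL22L1 and RPL7L1 held with each library left out and were lost once a trend with length and base composition was removed without the block (departures of 0.036, 0.092 and 0.029). With the block and that correction together RPL22L1 turned to above the core median (0.092, adjusted p = 0.00677), and so did RPS4X (0.090, adjusted p = 0.00036). The calls of RPS12, RPL12, RPL9 and RPS4X were the least settled. RPS12 lost its call without vector replicates 2 or 3 (adjusted p = 0.131 and 0.193) or SRMS shRNA replicates 1 or 3 (0.0677 and 0.0614). RPL12 lost its call without vector replicates 2 or 3 (adjusted p = 0.162 and 0.0916) or SRMS shRNA replicates 2 or 3 (0.0531 and 0.118). RPL9 and RPS4X lost theirs without any 1 of 5 libraries, SRMS shRNA replicate 1 being the exception, with adjusted p from 0.0866 to 0.155. Without SRMS shRNA replicate 1 the counts over the 83 genes were 6 above and 18 below, and without vector replicate 1 they were 5 above and 5 below.

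**Figure D3:**
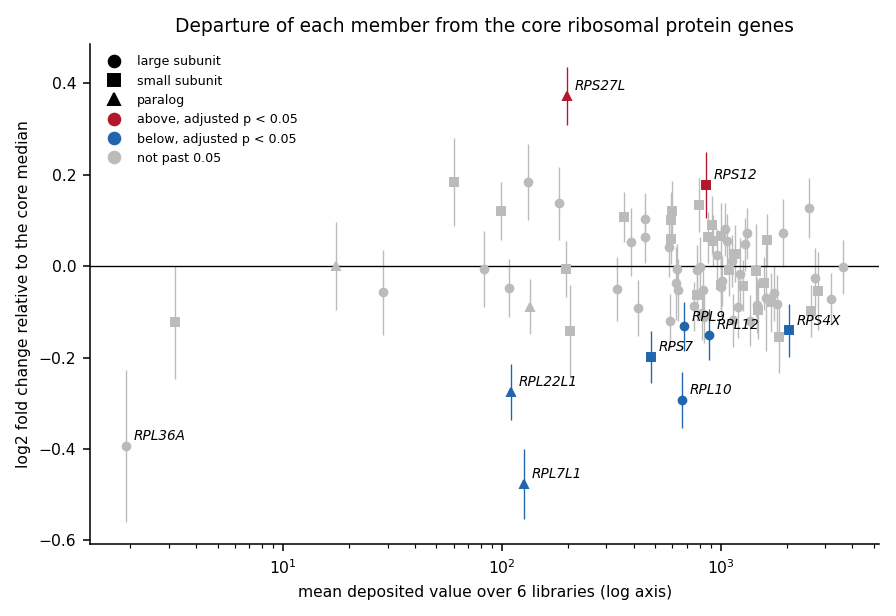
Log2 fold change of each gene relative to the core median (y axis, bars are 1 SE) against its mean deposited value over the 6 libraries (x axis, log scale), with shapes for the subunits and paralogs. RPL3L, with 9 reads in all, is not drawn. RPS27L stands 0.37 above the core median and RPL7L1 0.48 below it, while most core genes lie within 0.2 of it.

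The 6 paralogs, which resemble a core protein, were mixed: 3 were higher, 1 was lower and 2 did not pass the test. Their median was 0.22 on the log2 scale. RPS27L, whose gene is a known target of p53, had 148, 153 and 154 with the vector and 244, 248 and 246 in the libraries labelled SRMS shRNA. Each group of RPS27L lay within 6 units and the groups were far apart, with a log2 fold change of 0.70 (SE 0.032, adjusted p = 2.17e-07), the highest of the 83 genes. Its partner RPS27 had 77.2, 87.3 and 86.5 against 109.0, 122 and 112 (log2 fold change 0.45, adjusted p = 8.91e-05). The ratio of RPS27L to RPS27 was 1.91, 1.75 and 1.78 with the vector and 2.24, 2.04 and 2.19 in the libraries labelled SRMS shRNA. These ratios did not overlap, and their log2 difference was 0.25. A two-sided exact permutation test of 3 against 3 gave p = 0.1, the smallest it can give, and 0.233 after adjustment over the 7 pairs compared. Removal of the length and GC trend made the log2 difference 1.01, with annotated transcripts of 6434 bases for RPS27L and 359 for RPS27.

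RPL22L1, the paralog of RPL22, had 102.6, 109.5 and 111 with the vector and 104.7, 115 and 116 in the libraries labelled SRMS shRNA. Its groups overlapped, with a log2 fold change of 0.053 (adjusted p = 0.381), while RPL22 was higher as described above. Without SRMS shRNA replicate 1 the log2 fold change of RPL22L1 was 0.10 (adjusted p = 0.0497), and without replicate 1 of both groups it was 0.065 (adjusted p = 0.0419). It was also called higher with libraries aligned on the median of all genes (0.21, adjusted p = 0.00513) and with the block after removal of the length and GC trend (0.093, adjusted p = 0.0026). The ratio of RPL22L1 to RPL22 was 0.933, 0.992 and 1.06 against 0.650, 0.779 and 0.741. The ratios did not overlap, and the log2 difference of -0.46 had an exact permutation p of 0.1 (0.233 adjusted).

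RPL7L1, a paralog of RPL7 that acts in assembly of the large subunit, was the 1 gene of the 83 called lower. It had 136, 131 and 131 with the vector and 122, 117 and 119 in the libraries labelled SRMS shRNA, without overlap (log2 fold change -0.15, SE 0.036, adjusted p = 0.00477). When libraries were aligned on the median of all genes its log2 fold change was 0.011 (adjusted p = 0.786), so its direction rests on the deposited scaling. A ratio within a library does not depend on a scaling factor common to its genes. That of RPL7L1 to RPL7 was 0.0845, 0.0945 and 0.0939 against 0.0612, 0.0699 and 0.0751, a log2 difference of -0.41 with no overlap (exact permutation p = 0.1, 0.233 adjusted). The annotated transcripts differ in length (3769 bases for RPL7L1 and 1101 for RPL7), and removal of the length and GC trend left a log2 difference of -0.065 and turned RPL7L1 itself to 0.029 (adjusted p = 0.43).

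RPL26L1, nearly the same protein as RPL26, had 116, 128 and 124 with the vector and 134, 150.0 and 151 in the libraries labelled SRMS shRNA (log2 fold change 0.24, adjusted p = 0.00345). The ratio of RPL26L1 to RPL26 overlapped between the groups, with a log2 difference of -0.23 (exact permutation p = 0.3, 0.42 adjusted). RPL39L, known mainly from testis, had 13.7, 15.9 and 16.9 against 18.9, 18.9 and 20.8 (log2 fold change 0.33, adjusted p = 0.00599), and RPL39 had 77.8, 70.9 and 72.0 against 93.2, 95.1 and 88.0 (0.32, adjusted p = 0.000253). Their ratio overlapped, with a log2 difference of 0.0071 (exact permutation p = 0.9, 0.9 adjusted). RPL3L, the form found in heart and skeletal muscle, had 1 read in the 3 vector libraries and 8 in the 3 libraries labelled SRMS shRNA, at which depth no fold change is given. RPL36AL lies outside the naming rule and is nearly identical to RPL36A. Its ratio to RPL36A overlapped between groups (log2 difference 0.49, exact permutation p = 0.2, 0.35 adjusted) and rests on the uncertain RPL36A counts.

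**Figure D4:**
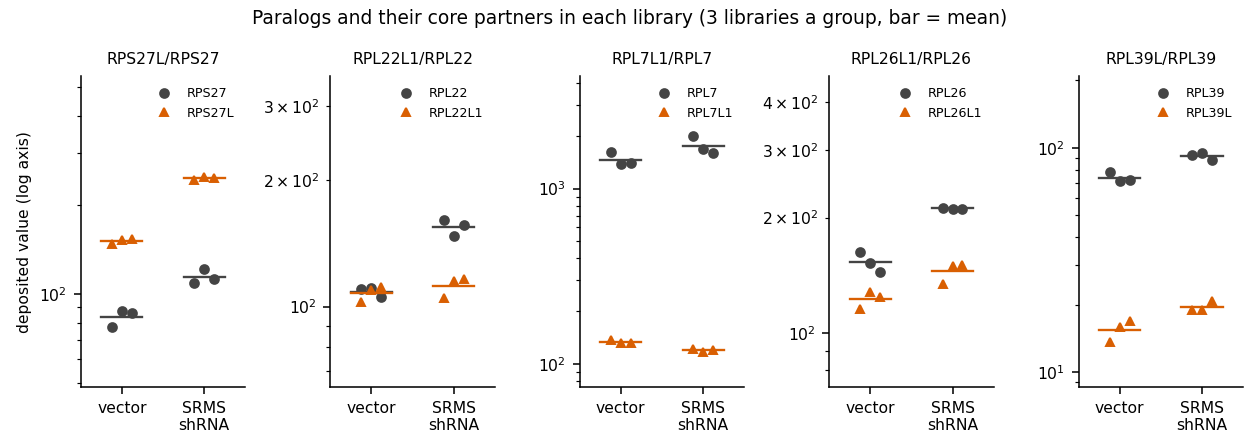
Deposited value (y axis, log scale) of 5 paralogs and their core partners in each library, 3 libraries a group, with bars at the group means. RPS27L and RPS27 are both higher in the libraries labelled SRMS shRNA, RPL22 separates from RPL22L1 there, and as deposited RPL7L1 is slightly lower while RPL7 is higher.

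Transcript length moved with the comparison across the whole table, and ribosomal protein mRNAs are short. The annotated transcripts of the core genes had a median of 802 bases, against 2815 bases over all genes. All genes were put in 5 bins of about equal size by length. Among other genes in the shortest bin (177 to 1617 bases), 52.1% were called higher and 7.39% lower, and the median difference was 0.23 on the log2 scale. The 68 core genes in the same bin had 63 called higher and a median of 0.29. Among other genes in the longest bin (5014 bases and more), 9.6% were called higher and 54.4% lower (median -0.23). Of the 9 core genes outside the shortest bin, 8 were called higher. These 9 are 3, 2, 3 and 1 genes in the next 4 bins, with medians of 0.22, 0.36, 0.38 and 0.31. Annotation bears on this, since the listed transcripts of RPL37 (7686 bases), RPL27A (4916) and RPS27L (6434) may not be the forms expressed here.

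Removing a smooth trend with length and GC content, fitted on the other genes, left 23 of the 83 genes called higher and 10 lower (29.7% and 23.2% of all genes). Their median log2 fold change was then 0.030. With the replicate block as well, 36 were higher and 21 lower (35.2% and 27.4%). As shares of the 83, these are 27.7% higher and 12.05% lower without the block and 43.4% and 25.3% with it. Genes that were higher under this correction included RPS27L (1.01, adjusted p = 1.76e-08), RPL22 (0.54, adjusted p = 1.05e-06) and RPLP1 (0.29, adjusted p = 2.68e-05). RPL12 (-0.17, adjusted p = 0.00252) and RPS7 (-0.16, adjusted p = 0.0167) were lower.

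**Figure D5:**
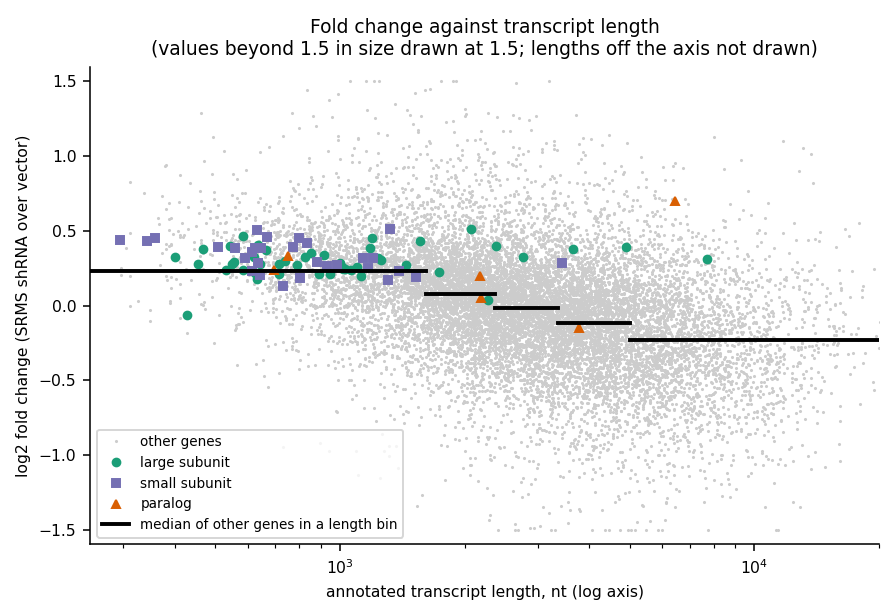
Log2 fold change (y axis) against annotated transcript length (x axis, log scale) for the ribosomal protein genes in colour and all other genes in grey, with the median of the other genes in each of 5 length bins as a black bar. The bars fall from 0.23 in the shortest bin to -0.23 in the longest, and most core genes lie at or above the bar of the shortest bin.

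Other features of the core genes were set beside their fold changes, in a fit that called 26.6% of all genes higher. The 46 core genes with the pyrimidine start had 43 called higher and a median log2 fold change of 0.32, and the 16 with another listed start had 15 called higher and a median of 0.27. These classes also differed in length, with median transcripts of 742.5 and 1005 bases. After removal of the length and GC trend their medians were 0.031 and -0.0028. On the same strand, 28 core genes overlap annotated small nucleolar or small Cajal body RNA genes, 60 when counted over the core genes. These 28 genes had 26 called higher and a median of 0.30, and the other 49 had 45 called higher and the same median of 0.30. Core genes lie on 21 chromosomes, and the 12 on chromosome 19 were all called higher, with a median of 0.38. Within the 300 bases around the start, on either strand, CTTCCG, part of an ETS factor site, was found in 64.5% of core promoters and 36.0% of tested genes. The overlapping CCGGAAG was found in 35.5% and 20.6%, ATGGCG, part of a YY1 site, in 40.3% and 20.4%, and TATAAA in 8.06% and 9.33%. These matches describe the sequences and show no binding.

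Ribosomal components that the naming rule leaves out were also higher. FAU, a fusion of a ubiquitin-like protein with a small subunit protein, had a log2 fold change of 0.45 and RPL36AL one of 0.43. RACK1, a signalling scaffold on the small subunit, had 0.21. All 3 of these were called higher, also with the block after removal of the length and GC trend, though at 0.097, 0.17 and 0.056. In what follows, counts and values after correction are from that fit (35.2% of all genes higher and 27.4% lower), and aligned counts are beside 44.6% and 17.9% of all genes. Of 14 translation factors and other mRNAs known for a pyrimidine start, 9 were higher (64.3%, beside 26.6% of all genes) and none was lower. The median was 0.18 (11 higher and 1 lower after correction). TPT1 (0.32, adjusted p = 6.88e-05), EEF1B2 (0.28), PABPC1 (0.27) and EEF1A1 (0.25) were among the higher ones, and EEF2 (0.0115, adjusted p = 0.844) did not pass as deposited but did when libraries were aligned on the median of all genes (0.17, adjusted p = 0.0105) and after correction (0.064, adjusted p = 0.000231). EEF1B2 did not pass after correction (0.020, adjusted p = 0.327).

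Genes that make and assemble ribosomes were called in both directions, and the lists are given beside 26.6% of all genes higher and 30.2% lower. Of 14 genes of RNA polymerase I transcription, which makes rRNA, 3 were higher and 8 lower (21.4% and 57.1%, median -0.21). The largest catalytic subunit gene POLR1A (-0.57), POLR1B (-0.32) and the factor gene UBTF (-0.26) were lower, and POLR1G (0.30) and POLR1C (0.27) were higher. When libraries were aligned on the median of all genes the split was 6 higher and 7 lower, and after correction 4 and 8, with POLR1A at -0.26, POLR1B at -0.10 and POLR1C at 0.11. Of 27 genes of rRNA modification and processing, 12 were higher and 8 lower (44.4% and 29.6%), with 17 and 2 when aligned on the median and 15 and 8 after correction. The small nucleoprotein genes NHP2 (0.55), NOP10 (0.47) and FBL (0.35) were higher, and NAT10 (-0.57), an rRNA acetyltransferase, and HEATR1 (-0.42), a factor of early small subunit assembly, were lower. After correction these 5 stood at 0.26, 0.12, 0.12, -0.41 and -0.071 in the order named. Of 20 genes of late assembly and of chaperones for ribosomal proteins, 9 were higher and 6 lower (45% and 30%), with 12 and 2 when aligned and 9 and 5 after correction. The shares called lower in this list and the one before it are close to that of all genes. They included ZNF622 (0.35) and TSR2 (0.33), the chaperone of RPS26, on the higher side, and HEATR3 (-0.44) and NMD3 (-0.30) on the lower, at 0.25, 0.20, -0.29 and -0.17 after correction.

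Regulators of mRNAs with a pyrimidine start also split. Of 15 genes of the mTOR pathway and of these mRNAs' binding proteins, 5 were higher and 7 lower. These are 33.3% and 46.7%, beside 26.6% and 30.2% of all genes. The counts were 7 and 5 when aligned on the median, and 6 and 5 after correction (median -0.0037 as deposited). RPTOR, the scaffold of mTOR complex 1, was lower from 15.3 ± 0.539 to 8.84 ± 0.635 (mean ± SD, n = 3 each; log2 fold change -0.76, limma adjusted p = 1.75e-05). LARP1 was lower at -0.57 (adjusted p = 0.000117), LARP4 at -0.57 and RPS6KB1, which encodes an S6 kinase, at -0.48. After correction RPTOR was at -0.53, LARP1 at -0.30, LARP4 at -0.25 and RPS6KB1 at -0.20, each still called lower. AKT1S1, an inhibitor within the same complex, was higher at 0.37 (adjusted p = 1.68e-05), and MTOR itself did not pass the test as deposited (-0.0037, adjusted p = 0.959) but was higher when aligned (0.16, adjusted p = 0.0192) and after correction (0.29, adjusted p = 1.67e-09). Of 8 transcription factors known from ribosomal protein and ribosome biogenesis promoters, none was higher and 3 were lower (37.5%, beside 30.2% of all genes). The 3 were SP1 (-0.69), TBPL1 (-0.22) and YY1 (-0.14). MYC did not pass (-0.13, adjusted p = 0.0675). When libraries were aligned on the median of all genes, SP1 alone of these 8 was called lower (-0.53), and YY1 was at 0.0156. After correction 2 were higher, YY1 (0.15, adjusted p = 3.65e-05) and GABPA (0.22, adjusted p = 0.000273), and 4 were lower: SP1 (-0.64), MAX (-0.34), MYC (-0.32, adjusted p = 3.38e-13) and TBPL1 (-0.28).

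Mitochondrial ribosomal proteins, which build the separate ribosome of mitochondria, are the group nearest to the cytosolic ones in function. Of 76 such genes, 51 were higher and 3 lower (67.1% and 3.95%, beside 26.6% and 30.2% of all genes). The counts were 70 and 1 when libraries were aligned on the median, and 36 and 20 after correction. Their log2 fold changes ran from -0.53 to 0.61, with a median of 0.23. The SD of the log2 fold changes across genes was 0.196 for the mitochondrial set and 0.109 for the cytosolic core genes. The difference between these groups of genes was not tested, since genes are not replicates.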

How the data were processed

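Poly(A) RNA was sequenced as stranded, paired-end libraries, per the labels' protocols. The submitters' processing notes name FastQC, cutadapt, HISAT2, StringTie and edgeR, and the GRCh38 build. How these were set, and how low genes were filtered, is not given in the sources used here. Deposited signal, named log CPM by its file, is linear: the authors' values are whole reads over an effective library size, on the scale of CPM. At least 99.99% of values per library came out whole within 0.1 when divided by the worth of 1 read, so count tests could be run as alternatives.

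Rows were matched to GENCODE release 29 and to current symbols (14007 of 14029 genes). The 13 rows for Y copies of pseudoautosomal genes were left out. Groups follow the labels, and 3 vector libraries were compared with 3 labelled SRMS shRNA. The test was limma 3.58.1 in R 4.3.3 on log2(value + 0.5) with an prior variance that depends on the mean level, p-values adjusted by Benjamini-Hochberg over all genes and called below 0.05. Fold changes on this scale understate those of low genes. Departure from the core median used the same fit after centring, and paralog ratios used exact permutation tests. The steps were tested on simulated data. Quasi-likelihood tests in edgeR 4.0.16 and DESeq2 1.42.0 on recovered reads, other scalings, pseudocounts of 1 and 0.1, a minimum mean, array weights, no trend, the replicate block, stricter thresholds, each library left out, and a spline trend with length and GC content (5 degrees of freedom, on 1 APPRIS principal transcript per gene) were alternatives. The same trend with the longest principal transcript, or removed from paralog ratios, was added after the data were seen. edgeR called 3893 genes higher and 4165 lower on the recovered reads.

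Same-numbered libraries deviated together from their group means (r = 0.486, 0.238 and 0.225 over 11353 genes). Replicates 2 and 3 correlated nearly as much when crossed (0.202 and 0.198). Over the core genes, vector replicate 3 followed SRMS shRNA replicate 2 (0.687) as closely as vector replicate 2 did (0.662). A shared deviation by number was thus clear for replicate 1 only, and a pairing of replicates 2 and 3 was not established. The main fit used no pairing. The replicate block was an alternative, and its p-values rest on the numbering.

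The ribosomal protein genes and all gene lists were chosen with earlier results of these data known. Genes named with full values were SRMS, the paralogs and their partners, RPLP0 to RPLP2, RPL5, RPL11, RPS6, RPSA, RPS27A, RPS4X, RPS3 and RPL10, the top 5 and bottom 5 core genes by fold change, core genes that did not pass, the 3 highest and 3 lowest per transcript length, and up to 5 departing from the core median in each direction. From other lists, part of the genes with the smallest adjusted p or a direction against the majority are named. RPL9, RPL17, RPL23A, RPL27A, RPL37, MTOR, EEF2, MYC, MAX and GABPA were named after their values were seen. A few genes that these rules or lists name, 1 of them a core gene left out of the plots, are not reported here, although counts and medians include them.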

Additional observations from a re-analysis of the deposited data

How the results depend on the processing

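Aligning libraries on the median of all genes gave 6254 genes higher and 2510 lower, 0 of the 83 lower, 5 paralogs higher, and medians of 0.45 (all 83), 0.45 (large subunit) and 0.48 (small). It turned RPL7L1 (0.011) and RPL36A (0.095). Quantile scaling gave 3971 genes higher and 3683 lower, with 46 of the 83, 43 core and 25 large subunit genes higher. The medians were 0.18, 0.17 and 0.21, and 10 of the 83 lay above and 11 below the core median. This scaling turned RPS6 (-0.076), RPS3 (-0.016), RPL10 (-0.057), RPS7 (-0.0012) and RPS2 (-0.012).

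Removing the length and GC trend left 23 of the 83 higher and 10 lower, with 22 core, 14 large, 8 small and 1 paralog higher, medians of 0.030, 0.016 and 0.025, and 19 genes above the core median. With the replicate block as well, 36 were higher and 21 lower, with 34 core, 19 large and 15 small subunit genes higher, the same medians, and 35 above and 18 below the core median. Both settings turned RPL26L1 (-0.066), RPL7L1 (0.029), RPL39 (-0.072), RPLP2 (-0.0088), RPS7 (-0.16), RPS10 (-0.15), RPS2 (-0.0001), RPL8 (-0.057) and RPL12 (-0.17). With the longest transcript, 30 of the 83 were higher and 10 lower, beside 4150 higher and 3268 lower of all genes. In that setting 29 core, 19 large, 10 small and 1 paralog were higher, with medians of 0.042, 0.039 and 0.053, and 17 lay above and 20 below the core median. That choice turned RPL26L1 (-0.080), RPL7L1 (0.060), RPL39 (-0.10), RPS27 (-0.022), RPL11 (-0.001), RPS7 (-0.14), RPS10 (-0.13), RPS2 (-0.0225), RPL8 (-0.071) and RPL12 (-0.20).

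The replicate block put 13 genes above and 19 below the core median, added SRMS, RPS2 and RPS7 to the genes called, and changed no other call among the 34 genes described. Genes above and below the core median numbered 23 and 32 with array weights, 11 and 26 without replicate 1 of both groups, 1 and 4 without the trend or at an adjusted p of 0.01, and 1 and 3 with replicates 2 and 3 averaged or a minimum size of 0.25 on the log2 scale, both of which left 0 of the 83 lower. DESeq2 gave 1 above. Array weights and leaving out replicate 1 of both groups turned RPL36A (0.0255 and 0.075).

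Leaving out 1 library at a time gave 65 to 77 of the 83 genes higher, beside 3195 to 3891 of all genes. Of the 83, 1 to 6 then lay above the core median and 4 to 18 below it. RPL36A turned without vector replicate 1 (0.0018) and SRMS shRNA replicates 1 (0.0084) and 2 (0.0027), and ranged from -0.21 to 0.0084. Removing the length and GC trend from both genes, an alternative added after the data were seen, moved the log2 difference of RPL7L1 to RPL7 to -0.065 and that of RPS27L to RPS27 to 1.01. The log2 difference of RPL39L to RPL39 ranged from -0.12 to 0.084 and was -0.0001 with a pseudocount of 1. Over these 34 genes and all alternatives, 693 values kept direction and call, 53 lost the call, 28 gained it and 40 turned. Some settings hold fewer genes or samples, and the causes of these changes were not tested. Values under about 3 reads, such as RPL3L, are limited by depth.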
